A study of Homo sapiens with 20 samples.

Results

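FRA1 silencing in 1205Lu, a metastatic human melanoma cell line, was examined over all genes of the RNA-seq count table. The samples were chosen by their labels, 3 of 1205Lu cells given non-targeting siRNAs (si-NT) and 3 given siRNAs against FOSL1, the gene of FRA1 (si-FRA1), which makes 6 of the 20 samples in the series. The count table lists 58870 genes, of which 17136 had enough counts in these 6 samples to be tested. The other 14 samples are RNA-seq of a second melanoma line, A375, under the same treatments, and FRA1 or IgG Cut&Run of both lines, of which the 4 from 1205Lu are used below. The cells were grown in RPMI-1640 with fetal bovine serum, and the labels name no other alteration or agent in any sample. The siRNA sequences and the time between transfection and RNA extraction are not given in the sources used here, and neither is whether the 3 samples of a group were separate cultures, so the p-values measure only the spread between these samples, which may be technical. Silencing by siRNA lowers the mRNA and leaves the gene intact.

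FRA1, the product of FOSL1, is a member of the FOS family. FOS proteins cannot bind DNA alone. They pair with a JUN protein to form AP-1, a transcription factor that recognises a short palindrome, TGANTCA, and that lies at the end of the ERK pathway, which is active in most melanomas. In melanoma, FRA1 is known as a marker of invasive cells that have lost the pigment cell program, and the AP-1 subunits compete for the same partners and sites.

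The si-NT libraries held 22924668 to 30788243 counts, and the si-FRA1 libraries 20573412 to 22667820. The share of counts from mitochondrially encoded genes was 9.85% to 10.0% with si-NT and 8.85% to 8.95% with si-FRA1, and its part in the results below was not tested. The most abundant RNA, RN7SL1, took 3.05% to 3.63% of the counts. Any 2 libraries of a group differed by more than sampling noise, so all were counted as separate samples. Most markers were those of dedifferentiated melanoma, since AXL lay between 489 and 503 CPM (counts relative to the scaled library size) with si-NT, while MITF lay between 3.26 and 3.71 CPM and the pigment genes MLANA, TYR and TYRP1 had at most 10 counts in any sample. SOX10 and S100B, neural crest markers that such cells often lack, went against this at 895 to 922 and 415 to 432 CPM with si-NT. Markers of epithelial, immune and endothelial cells summed to under 19 CPM in every sample, and nearly all of the immune sum was CD68, a lysosomal gene, at 16.5 to 17.8 CPM with si-NT and 6.37 to 7.95 with si-FRA1, while PTPRC, CD3E and LYZ had at most 13 counts. The 7 fibroblast markers summed to 191 to 199 CPM with si-NT and 179 to 188 CPM with si-FRA1, almost all of it PDGFRA.

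FOSL1 (ENSG00000175592.8, GRCh38 chromosome 11, 65892049 to 65900573, minus strand) was 489, 480.2 and 473 CPM in the si-NT samples and 68.6, 69.3 and 63.6 CPM in the si-FRA1 samples. Its mRNA was thus low in every library labelled si-FRA1, with 14.0% of the si-NT mean left. The log2 fold change, always given as si-FRA1 over si-NT, was -2.84 (SE 0.0291). Its adjusted p was 1.0e-22, from the quasi-likelihood test of edgeR, which gives every adjusted p below, corrected over all tested genes. No protein-coding gene with a mean count of 100 or more had a more negative value.

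Beyond the target, many genes changed and most changed little. A gene passed when its adjusted p was under 0.05, and it was called when it also changed more than 2-fold. Lower with si-FRA1 were 3408 genes that passed (19.9% of those tested), and 3533 were higher (20.6%). Their median absolute log2 change was 0.35. Called were 350 lower genes (2.04%) and 186 higher genes (1.09%), of which 130 and 75 had a mean count of 100 or more. The groups did not overlap for 49.4% of all genes tested, so a lack of overlap alone says little here. Abundant genes passed more often, with 27.0% lower and 29.3% higher among the 11191 genes with a mean count of 100 or more.

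**Figure D1:**
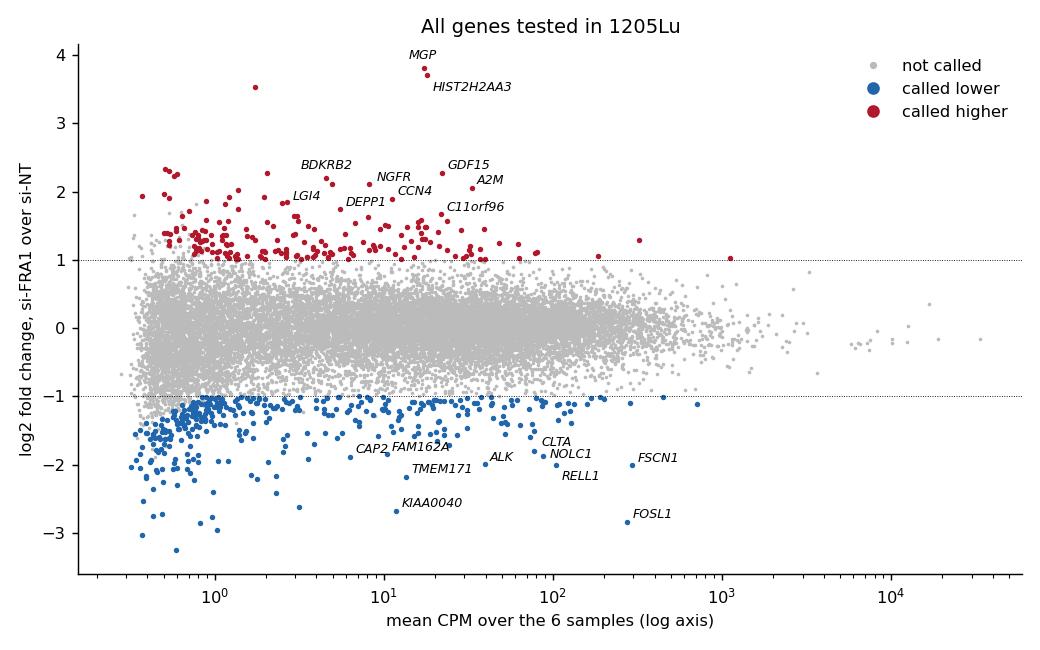
Log2 fold change of si-FRA1 over si-NT (y axis) against the mean CPM of the 6 samples (x axis, log scale), each point 1 of the 17136 genes tested. Blue points are the 350 genes called lower and red points the 186 called higher, dotted lines mark 2-fold, and the labels show the 10 most changed protein-coding genes in each direction at a mean count of 100 or more, from FOSL1 at -2.84 to MGP at 3.81.

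The text of the study names 9 genes, FOSL1 among them, that it chose at least in part on these same samples, so that their directions are no independent evidence. All 9 passed, 7 lower and 2 higher. FSCN1 (chromosome 7, 5592816 to 5606655), which encodes the actin-bundling protein fascin of filopodia and invadopodia, was 478, 469 and 469 CPM with si-NT, against 113, 120.5 and 118 CPM with si-FRA1. The groups were far apart, and the log2 fold change was -2.01 (SE 0.0251, adjusted p = 2.1e-21). AXL (chromosome 19, 41219223 to 41261766), the receptor tyrosine kinase for GAS6, was 492, 489 and 503 CPM with si-NT. In the si-FRA1 samples AXL was 264, 255 and 272 CPM, a log2 change of -0.91 (SE 0.0230, adjusted p = 1.0e-16) that stays under 2-fold. CDK6 (chromosome 7, 92604921 to 92836573), a G1 kinase that phosphorylates RB, was 519, 524 and 516 CPM and then 445, 432 and 443 CPM. This was the smallest of the 9 changes, at -0.24 (SE 0.0182, adjusted p = 1.4e-09).

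Of the other genes on that list, KIAA0040 fell from 21.5, 19.4 and 20.4 CPM to 3.56, 2.92 and 3.13 CPM. RELL1, a relative of the TNF receptor RELT, fell from 169, 169.8 and 164 CPM to 41.0, 41.8 and 42.2 CPM, and CLTA, the clathrin light chain A, to 28.6% of its si-NT mean. The 2 genes that rose were GDF15, a stress-induced cytokine, from 8.92, 6.98 and 6.48 CPM to 36.8, 35.02 and 37.8 CPM, and ATOH8, a bHLH factor downstream of BMP signaling, from 10.1, 9.32 and 8.68 CPM to 27.9, 24.9 and 25.6 CPM. In none of these genes did the groups overlap.

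**Figure D2:**
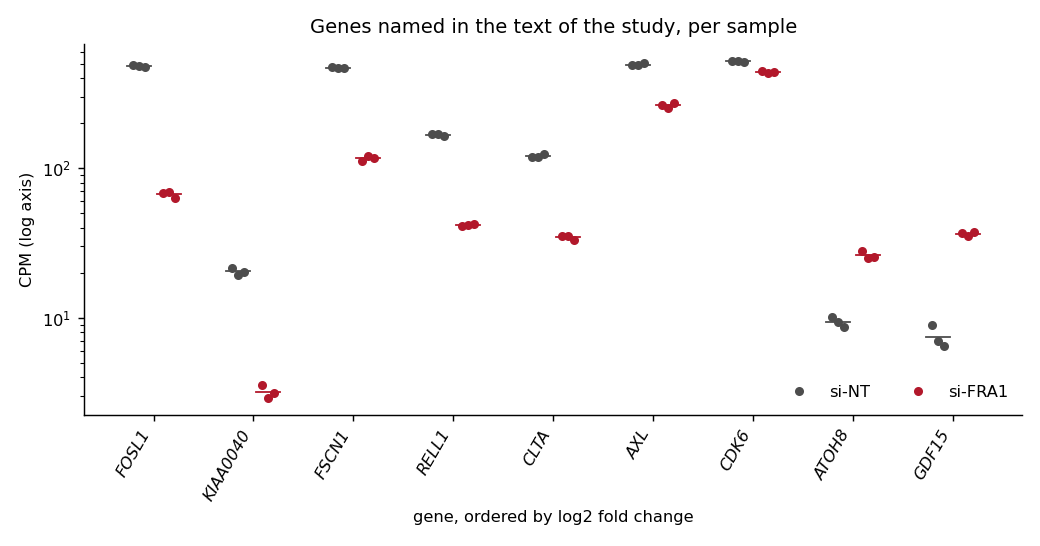
CPM (y axis, log scale) of the 9 genes named in the text of the study, ordered by log2 fold change. Each point is 1 sample, grey for the 3 si-NT and red for the 3 si-FRA1 samples, and short lines are group means. AXL and CDK6 show the smallest separations and FOSL1 the widest.

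Beyond that list, and among protein-coding genes with a mean count of 100 or more, large falls were in ALK, a receptor tyrosine kinase and known oncogene, from 65.2, 62.1 and 62.5 CPM to 14.8, 17.6 and 15.1 CPM (25.1% of its si-NT mean), and in NOLC1, a nucleolar phosphoprotein, which fell to 27.3%. The others of the 10 largest were TMEM171 (log2 change -2.18, SE 0.102), CAP2, a cyclase-associated actin regulator (-1.88, SE 0.172), and FAM162A, a hypoxia-responsive mitochondrial protein (-1.85, SE 0.114). TMEM171 was 23.4, 21.1 and 22.1 CPM with si-NT, against 4.34, 5.06 and 5.32 CPM with si-FRA1. MGP, matrix Gla protein, an inhibitor of calcification and of BMP ligands, was near the floor with si-NT at 1.22, 3.31 and 2.57 CPM. With si-FRA1 it was 31.1, 31.2 and 33.8 CPM, and its log2 change of 3.81 (SE 0.164) was the largest of all genes tested. A2M, a broad protease inhibitor, rose from 12.5, 13.2 and 12.8 CPM to 57.3, 49.6 and 53.2 CPM. The largest rises also included BDKRB2, the bradykinin B2 receptor, from 1.52, 1.72 and 1.67 CPM to 7.66, 7.63 and 7.15 CPM. LGI4, a secreted glial factor, and NGFR, the neural crest receptor CD271, rose by 2.11 and 2.105 on the log2 scale. NGFR was 3.17, 2.65 and 3.46 CPM with si-NT, against 14.5, 12.7 and 12.9 CPM with si-FRA1. CCN4, a matricellular target of Wnt signaling, rose by 1.89, DEPP1, a FOXO target, by 1.74, and C11orf96 by 1.66. HIST2H2AA3 had a log2 change of 3.71, but its si-NT values of 4.79, 0 and 2.32 CPM vary widely, and it shares its sequence with a near-identical copy, so the value is uncertain. The long non-coding LINC00707 had 11.4, 8.70 and 9.12 CPM with si-NT, against 4.24, 3.49 and 3.78 CPM with si-FRA1 (log2 change -1.35, SE 0.149). Of the other long non-coding genes, AC118758.3 (-1.58), MIR210HG (-1.25), the host of the hypoxia-induced miR-210, and HAGLR (-1.13), an antisense transcript of the HOXD cluster, fell, and AC125257.1 (1.18) rose.

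Many transcripts with a large fall shared a short sequence with the target itself. The coding sequence of FOSL1 holds the 7 bases GAGTAGC once. The following lines show it and occurrences in the 3′UTRs of genes that fell, each as 21 bases of the transcript with the 7 bases in capitals, from GENCODE v44 on GRCh38.
FOSL1: agctcatcgcaaGAGTAGCag
CLTA: gaagcttcccaaGAGTAGCct
CAP2: tcttcagcgtaaGAGTAGCta
NOLC1: tttttgagtgttGAGTAGCag
CDK6: ggtgagcaaaatGAGTAGCac
The FOSL1 stretch lies in the coding sequence at chr11:65892944-65892964 on the minus strand. The 3′UTR stretches lie at chr9:36211986-36212006 (CLTA, plus strand), chr6:17557447-17557467 (CAP2, plus strand), chr10:102162458-102162478 (NOLC1, plus strand) and chr7:92609574-92609594 (CDK6, minus strand). The unbroken run identical to FOSL1 was 10 bases in CLTA, 9 in CAP2 and NOLC1 and 8 in CDK6. FSCN1, KIAA0040, ALK and AXL had no match in the 3′UTR of their reference transcript.

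The 7 bases were present in the 3′UTR of 76 of 251 called lower protein-coding genes (30.3%, 95% Wilson interval 24.9% to 36.2%), 11 of 144 called higher genes (7.64%, 4.32% to 13.2%) and 1750 of all 13508 tested genes with a 3′UTR (12.96%). These 7 bases were chosen with earlier results of these data known, and no other 7-base stretch of FOSL1 is set beside them. The shares are thus a description, and the intervals do not cover that choice. Median 3′UTR lengths were 1651 bases for the called lower genes, 1242 for the called higher and 1414.5 for all. Part of these matches were followed by letters (TGGGA) of the Alu repeat, which is common in long 3′UTRs. Genes with a match outside that context and genes with matches inside it alone had similar 3′UTR lengths, with medians of 3862.5 and 3652.5 bases. Genes without the 7 bases had much shorter 3′UTRs, with a median of 1192 bases. The part of this length difference in the shares below was not tested. Of the 1036 genes with a match outside it, 6.08% were called lower and 0.772% higher, and their median log2 change was -0.10. Of the 714 genes with repeat matches alone, 1.82% were called lower and 0.420% higher, with a median of -0.04. Of the 11758 genes without the 7 bases, 1.49% were called lower and 1.13% higher, with a median of 0.01. The 8 bases GAGTAGCA, which FOSL1 also has, were in the 3′UTRs of 18 of 251 called lower genes (7.17%), 0 of 144 called higher genes (Wilson upper limit 2.60%) and 282 of all (2.09%). The part of this sequence in the falls was not tested. Without every gene that carries it in the 3′UTR, 274 genes were called lower and 175 higher. Below, the sequence is mentioned only for some genes that fell. DEPP1, TNRC6B, PLXNA2 and VCL, which rose, also have it, so a gene without a mention may carry it. Of protein-coding genes with a 3′UTR, 547 of 3129 that passed lower (17.5%) and 353 of 3261 that passed higher (10.8%) held the 7 bases.

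**Figure D3:**
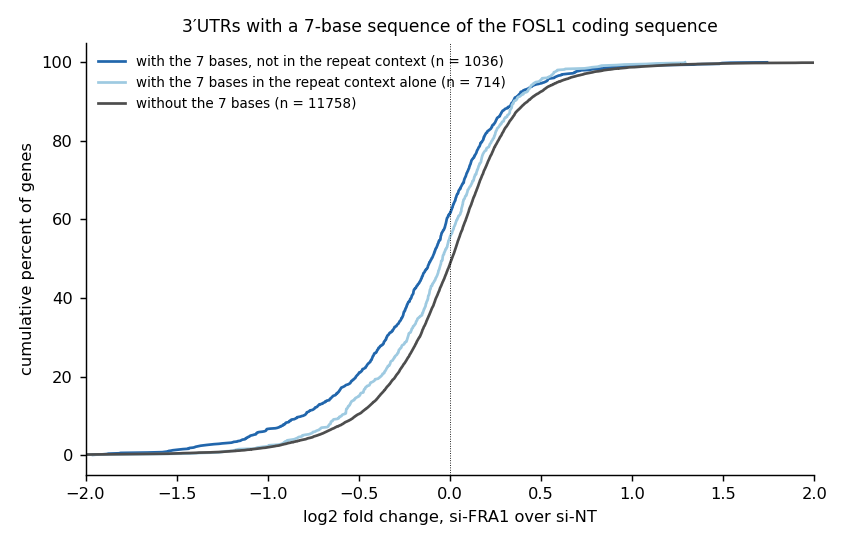
Cumulative percent of genes (y axis) against log2 fold change (x axis, drawn from -2 to 2) for tested protein-coding genes by the presence of the 7-base FOSL1 sequence in the 3′UTR. The curve of the 1036 genes with the sequence outside the repeat context lies to the left (61.5% of genes below 0), that of the 714 genes with repeat matches alone is intermediate (55.6%), and that of the 11758 genes without it crosses 0 at 48.7%.

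FRA1 occupancy at promoters was compared with these changes in the Cut&Run counts of the same line. Enriched peaks were those with 10 or more counts in each of the 3 FRA1 libraries and no fewer than 4 times as many as in IgG (after adding 1 to IgG, unscaled), which held for 3871 of 54563 consensus peaks. An enriched peak lay within 3 kb of a transcription start for 13 of 256 called lower genes (5.08%, 95% Wilson interval 2.99% to 8.49%), 5 of 151 called higher genes (3.31%, 1.42% to 7.52%) and 667 of all 13699 protein-coding genes tested (4.87%, 4.52% to 5.24%). The 3 intervals overlapped, with few called genes behind each share. The FRA1 libraries held 583750 to 897407 counts in peaks and the IgG library 314569. Without FRA1 replicate 1, the shallowest of the 3, the shares were 11.3%, 5.96% and 8.62%. The variance between FRA1 replicates 2 and 3 was 1.08 times that of sampling noise, against 2.15 and 1.76 for the pairs with replicate 1. Replicates 2 and 3 may thus not be separate preparations, and the labels do not say. Of all enriched peaks, 82.3% held TGANTCA. The 300-base promoter windows of RefSeq (GRCh38.p14, 250 bases before to 50 after the start) held TGANTCA, a palindrome and thus the same on both strands, in 23 of 198 called lower genes (11.6%, 7.87% to 16.8%), 9 of 111 called higher genes (8.11%, 4.32% to 14.7%), 7.11% (6.64% to 7.60%) of the 10977 tested genes matched to a window and 7.71% of all 35116 windows. The interval of the called lower genes lay just above that of all tested genes, and that of the called higher genes overlapped both. The difference was not tested.

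Of the 9 genes and the 20 most changed, AXL, KIAA0040 and FOSL1 itself had an enriched peak near a start. The AXL peak (chr19:41225180-41226590, inside the gene and centred 870 bases from the nearest annotated start) had 155, 316 and 242 FRA1 counts against 6 in IgG and held 4 TGANTCA matches. The KIAA0040 peak (chr1:175168959-175169971, inside the gene) had 42, 82 and 57 FRA1 counts against 3 in IgG and held 2 matches. The matches are shown on the plus strand of GRCh38 with the 7 bases in capitals, because they lie under FRA1 peaks of genes that fell.
AXL, chr19:41225696-41225716: atatgtgTGAGTCAcggtgtt
AXL, chr19:41225815-41225835: ttaagtgTGATTCAttgtgag
AXL, chr19:41225895-41225915: ctctatcTGACTCAgggcgtg
AXL, chr19:41226185-41226205: cccccggTGACTCAcgcgggg
KIAA0040, chr1:175169441-175169461: aatgaaaTGAGTCAgtagaag
KIAA0040, chr1:175169748-175169768: caggagcTGAATCAtaagggt
The FOSL1 peak (chr11:65902643-65903890) had 47, 90 and 68 counts against 6 in IgG, with its centre 2693 bases from the start and no TGANTCA. FSCN1, CDK6, RELL1, NOLC1, CLTA, ALK and GDF15 had peaks in the consensus set near a start, but none that met the limit. The study, by its own peak calls, reports FRA1 occupancy at AXL, CDK6 and FSCN1. Missing the limit used here thus does not mean that FRA1 is absent. A match of letters is a description and not a site in use.

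Gene families were then described with 58 lists, of which 1 is the study's own genes. Because pathways differ in how abundant their genes are, each share should be read beside the 19.9% lower and 20.6% higher over all genes tested, and in bulk RNA a smaller number of cells in a state cannot be told apart from less RNA per cell. The lists with the largest shares of lower members included the cell division machinery. Of 43 DNA replication genes, 41 were lower, 1 was higher (DBF4, 0.12) and the median log2 change was -0.63. All 12 origin licensing genes, all 17 polymerase and clamp genes and all 6 genes of nucleotide supply fell. GINS2, a subunit of the replicative helicase, was 15.996, 16.7 and 16.6 CPM with si-NT, against 6.503, 9.81 and 9.58 CPM with si-FRA1 (log2 change -0.93). CDC45, its helicase partner, changed by -0.90 and POLA2, the primase-associated polymerase subunit, by -0.89. None of the 43 changed 2-fold.

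Of 55 mitosis genes, 54 were lower, with a median of -0.50, and 1 was higher (CDC25B, 0.16). The fall covered all 11 kinases and cyclins, all 13 kinetochore genes and all 17 motors and spindle genes. NEK2, a centrosomal kinase, fell from 21.8, 22.7 and 21.5 CPM to 10.1, 9.55 and 8.13 CPM (log2 change -1.25, SE 0.0897, adjusted p = 5.9e-10). RACGAP1, which builds the central spindle, changed by -1.08 and CENPI, a centromere protein, by -1.08. NEK2 carries the 7-base sequence in its 3′UTR, as do 5 of the 54 lower mitosis genes in all and 4 of the 41 lower replication genes. Of all protein-coding genes with a 3′UTR that passed lower, 17.5% carry it.

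Replication-dependent histones, which are made in S phase, moved likewise. Of 59 tested, 50 were lower (median -0.55), among them HIST1H3F (-1.21) and HIST1H2AJ (-0.97), and 3 were higher (HIST1H1A, HIST2H2BD and HIST2H2AA3). Many of these genes have near-identical copies, so counts of single members are uncertain, and HIST2H2AA4, the copy of HIST2H2AA3, was at -0.47. Of 56 DNA repair genes 28 were lower and 5 higher (median -0.14), and the lower ones were most frequent in homologous recombination, with 10 of 15, against 1 of 5 in mismatch repair. EXO1, a resection nuclease, was at -0.82 and FANCG, of the Fanconi anemia core, at -0.81. Of 17 HMGA, HMG box and polycomb chromatin genes 8 were lower and 5 higher, with HELLS, a chromatin remodeler, at -0.996, UHRF1, which guides maintenance methylation, at -0.91, and HMGB3 at -0.63.

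G1 control genes were split. Of 24 tested, 11 were lower and 4 higher. All 3 kinases were lower, with CDK2 at -0.60, CDK6 at -0.24 and CDK4 at -0.15. CCND1, a D-type cyclin that partners CDK4 and CDK6, was higher at 0.43. Inhibitors moved both ways, since CDKN1C (1.49), the CDK inhibitor p57, from 5.62, 6.10 and 5.13 CPM to 13.2, 18.3 and 15.6 CPM, and CDKN1A (0.76), the p53 target p21, rose, whereas CDKN2C (-1.58), the INK4 inhibitor p18, and CDKN2D (-0.62) fell. CDKN2C was 21.7, 21.2 and 24.8 CPM with si-NT, against 6.79, 7.37 and 8.50 CPM with si-FRA1, and its 3′UTR holds the 7-base sequence. Among E2F factors, E2F2 (-0.91), E2F8 (-0.88) and E2F1 (-0.65) fell and E2F5 (0.71) rose. CDKN2A and CDKN2B had too few counts to be tested.

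Targets of p53 were mostly higher. Of 33 tested, 21 were higher and 5 lower (median 0.33). All 12 genes of arrest and feedback were higher, with a median of 0.59, while of 9 death genes 4 were higher and 4 lower. TP53INP1, a p53-inducible stress protein, rose from 5.55, 5.48 and 4.93 CPM to 15.99, 14.8 and 14.5 CPM (log2 change 1.504, SE 0.113, adjusted p = 1.1e-09). BTG2, an antiproliferative gene, rose from 10.9, 12.7 and 14.9 CPM to 28.7, 28.9 and 30.7 CPM (1.2021, SE 0.0899). MDM2, the p53 ubiquitin ligase, changed by 0.32 only, and TP53I3 fell by 0.54. Of 15 BCL2 family genes tested, 6 were higher and 2 lower. The higher ones were mostly BH3-only proteins, which trigger apoptosis, with BMF at 1.54, BBC3 at 1.496, HRK at 1.13 and BCL2L11 at 0.60, together with the pore former BAK1 (0.62) and the survival gene MCL1 (0.23). BBC3 and HRK had under 100 counts on average. BMF was 3.87, 3.23 and 3.30 CPM with si-NT, against 11.3, 9.68 and 9.44 CPM with si-FRA1.

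**Figure D4:**
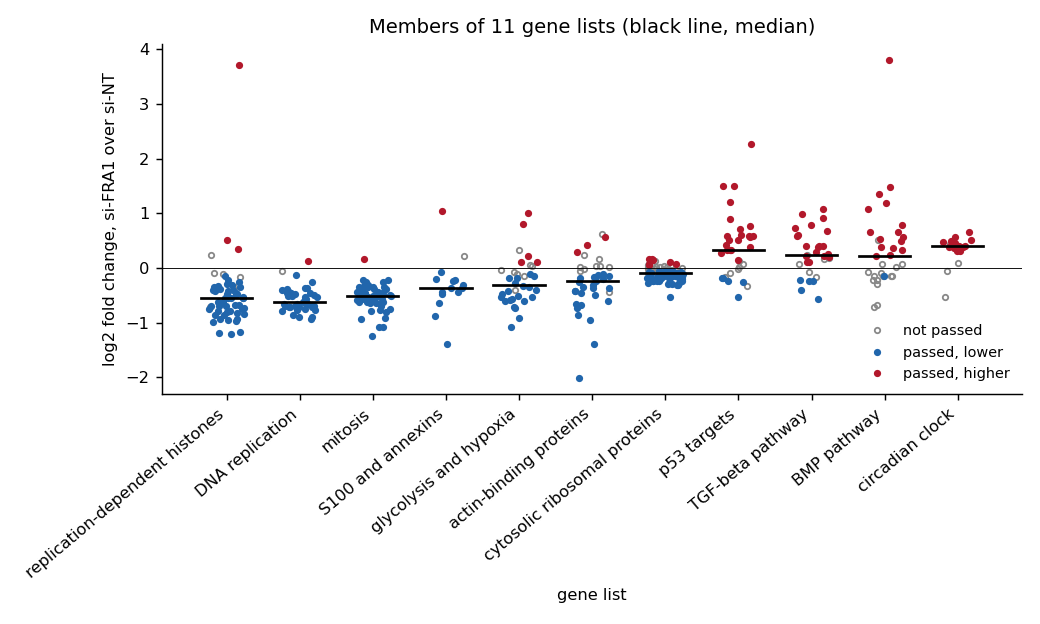
Log2 fold change of si-FRA1 over si-NT (y axis) for each tested member of 11 lists (x axis), filled blue where it passed lower, filled red where it passed higher and open where it did not pass. Black lines are medians, which run from -0.63 for DNA replication to 0.39 for the circadian clock, and points are spread sideways for legibility.

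Receptors, SMADs and targets of the SMAD pathways were mostly higher. In the TGF-beta pathway 19 of 30 genes were higher and 5 lower (median 0.23). All 9 targets were higher, among them SMAD7, the inhibitory SMAD, from 4.79, 4.06 and 3.83 CPM to 9.92, 9.24 and 7.71 CPM (1.08), TGFBI (0.79) and CCN2 (0.68). Of the 9 receptors and SMADs, 8 were higher, led by TGFBR3, the co-receptor betaglycan (0.98), and ACVR2B, an activin receptor (0.91). Of the 5 ligands tested none was higher, and TGFB3 (-0.23) and GDF11 (-0.25) were lower. The latent TGF-beta binding proteins LTBP1 (-0.57), LTBP2 (-0.41) and LTBP4 (-0.23) fell.

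In the BMP pathway 16 of 32 genes were higher and 1 was lower (ACVR1, -0.15). Of its 10 targets 8 were higher, with a median of 0.73. ID2, an inhibitor of bHLH factors, rose from 7.44, 5.96 and 7.90 CPM to 17.0, 18.7 and 19.1 CPM (1.36, SE 0.109), ATOH8 by 1.48 and HEY1 by 1.19. The signal transducers SMAD1 (0.57) and SMAD5 (0.37) and the receptors BMPR1A (0.49) and BMPR2 (0.24) rose too. Of the ligands BMP8B (0.22) rose. BMP1 (0.32), which was listed with the ligands but is a procollagen protease and not a BMP ligand, rose too. Of the antagonists MGP and BAMBI (0.52) rose, while NOG did not pass at -0.16 nor CHRD at -0.67. In the Notch pathway 7 of 13 genes were higher and 2 lower, with NOTCH1 at 0.66, its ligand JAG1 at 0.66 and NOTCH3 at 0.57. Wnt pathway genes were spread over both directions (12 higher and 8 lower of 35), from TCF7L1, a repressive TCF (-1.13), to the receptor FZD4 (0.76) and the feedback gene NKD1 (0.57).

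Of 18 AP-1 genes tested 8 were higher and 3 lower, FOSL1 and ATF7 (-0.15) among the lower. FOS (0.66) and FOSB (0.76) rose while FOSL2, the closest relative of FOSL1, was at -0.03 and did not pass. Among FRA1's partners JUNB rose from 27.9, 24.5 and 25.8 CPM to 57.3, 49.4 and 51.8 CPM (1.01, SE 0.0627), JUND rose by 0.73 and JUN fell by 0.41. ATF3, a stress-induced AP-1 partner, rose from 6.25, 5.08 and 5.83 CPM to 12.1, 15.5 and 12.1 CPM (1.21). ERK outputs and feedback genes included 10 higher and 5 lower of 19. SPRY1, a feedback inhibitor of RTK signaling, was called, from 1.42, 0.928 and 0.896 CPM to 4.14, 3.79 and 3.88 CPM. EGR1, an immediate early factor, rose from 564, 553 and 569 CPM to 861, 855 and 855 CPM (0.61), SPRED1, a RAS inhibitor, by 0.56 and IER3 by 0.49, and of the ERK phosphatases DUSP4 (0.23) rose, while DUSP5 (0.03) and DUSP6 (-0.07) did not pass.

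Among cell surface receptors both directions occurred. Of 30 receptor tyrosine kinases 11 were higher and 7 lower. ALK, AXL and MST1R (-1.48, under 1 CPM) fell, and PDGFRB (1.16), from 7.30, 5.65 and 6.48 CPM to 13.7, 14.7 and 15.4 CPM, and FGFR3 (1.08) rose. IGF1R (0.58), ROR1 (0.56), FGFR1 (0.53) and MET (0.32) rose by less than 2-fold. Of 17 Eph receptors and ephrins 8 were higher and 1 lower, led by EPHB2 (0.98) and the ligands EFNA1 (0.76) and EFNB1 (0.59). Of 17 TNF receptor genes 9 were higher and 4 lower, with RELL1 and RELT (-0.62), 2 related proteins, both lower and NGFR higher. Of 30 semaphorin genes 10 were higher and 7 lower, among them SEMA6B (0.89), PLXNA2 (0.82) and the co-receptor NRP1 (-0.64).

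Markers of melanoma cell state changed in both directions. Of 20 genes of the dedifferentiated state 11 were higher and 8 lower. AXL, NT5E (-0.67), NRP1 (-0.64) and TNC (-0.36) fell, whereas NGFR, PDGFRB, THBS1 (1.03) and TGFBI (0.79) rose. THBS1, thrombospondin 1, was 725, 737 and 744 CPM with si-NT, against 1519, 1504 and 1489 CPM with si-FRA1. Of 10 melanocyte lineage genes tested, PAX3 (0.67), EDNRB (1.07) and ERBB3 (0.24) rose, SOX10 (-0.24) fell and MITF did not pass at -0.13. PAX3 was 41.4, 46.1 and 43.7 CPM and then 66.2, 74.2 and 68.3 CPM. Of the pigment enzymes TYR and TYRP1 had too few counts and DCT did not pass at -0.26. EMT genes had 5 lower and 4 higher of 16, with PRRX1 (-1.08) and the cadherin CDH6 (-0.77) lower and SNAI1 (0.69), SNAI2 (0.59), ZEB2 (0.48) and fibronectin FN1 (0.82) higher. FN1 was among the most abundant of these, at 2338, 2391 and 2386 CPM with si-NT, against 4226, 4216 and 4152 CPM with si-FRA1.

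**Figure D5:**
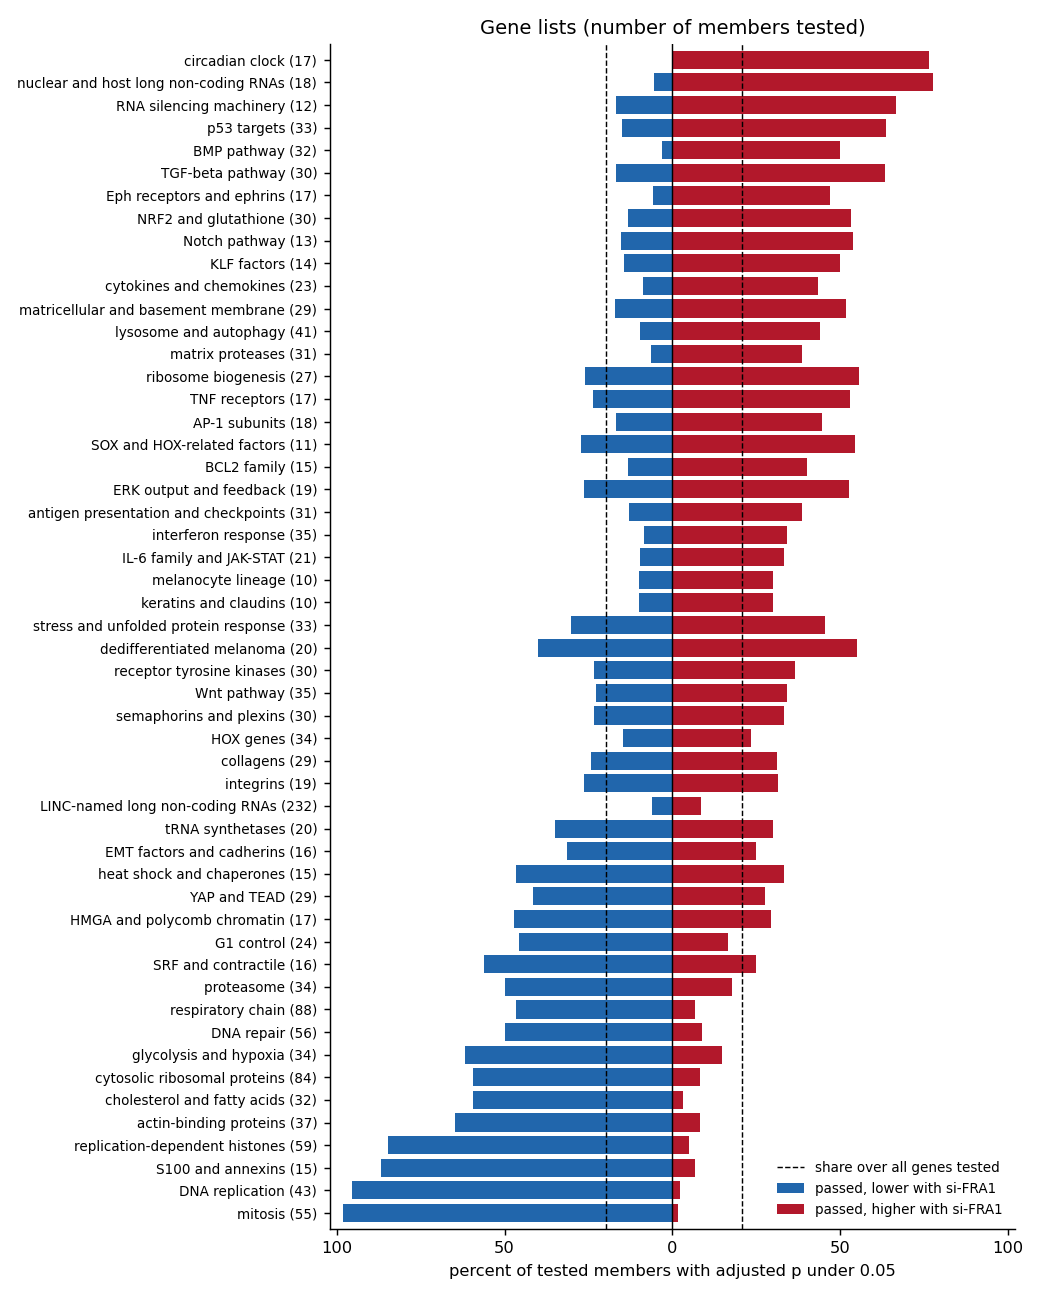
Percent of the tested members of each gene list that passed lower (blue, to the left) or higher (red, to the right) with si-FRA1, with the number of members tested in parentheses, for described lists with at least 10 tested members. Dashed lines mark the shares over all genes tested, 19.9% lower and 20.6% higher, and the lists are ordered by the difference of their shares, from mitosis at the bottom to the circadian clock at the top.

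Genes of the actin cytoskeleton were mostly lower. Of 37 actin-binding genes 24 were lower and 3 higher (WASL, VCL and ZYX), with a median of -0.23, and among branching and elongation genes 12 of 16 were lower. ARPC5, a subunit of the ARP2/3 complex that branches actin, fell from 70.5, 71.3 and 71.6 CPM to 28.0, 27.5 and 25.9 CPM (-1.39, SE 0.0476, adjusted p = 8.4e-15). WASF3, an activator of that complex in lamellipodia, changed by -0.85, ARPC1B by -0.73 and the formin DIAPH1 by -0.68. ARPC5 and WASF3 are among 4 lower genes of this list with the 7-base sequence in the 3′UTR. In the contractile list 9 of 16 genes were lower and 4 higher, with MYH9, non-muscle myosin, from 787, 799.6 and 795 CPM to 428, 409.9 and 427 CPM (-0.91), TPM4 at -0.89 and ACTA2, smooth muscle actin, at 0.77. In the YAP and TEAD list, whose median changed sign with the scaling, 12 of 29 were lower and 8 higher, with the tumor suppressor NF2 at -1.03 and the YAP targets CCN1 at 0.81 and AXL at -0.91. The 7-base sequence is in the 3′UTR of 3 of the 9 lower contractile genes, MYH9 among them. In the YAP and TEAD list 5 of the 12 lower genes hold it, beside 17.5% of all protein-coding genes with a 3′UTR that passed lower.

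Of 15 S100 proteins and annexins, calcium-binding proteins of the cell cortex, 13 were lower (median -0.37), and ANXA1 (1.04) was the only one that rose. S100A1 fell from 191, 179 and 190.4 CPM to 70.6, 70.2 and 71.9 CPM (-1.40, SE 0.0336). S100A16 changed by -0.87 and S100A10, the partner of ANXA2, by -0.64. S100A1 has the 7-base sequence in its 3′UTR and S100A16 and S100A10 do not. Integrins were split (5 lower and 6 higher of 19), with ITGA5 (-0.54) and ITGB3 (-0.51) lower and ITGA9 (0.44) higher. Of 8 laminins LAMB1 (0.22) and LAMA5 (0.21) were among 4 higher and LAMB2 (-0.18) was lower. In the small gap junction list TJP1, a tight junction scaffold, was at 0.29, the connexin GJC1 at -0.20 and GJA3 did not pass at 0.08.

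Matrix genes were more often higher than lower. Of 29 matricellular and basement membrane genes 15 were higher and 5 lower, among them BGN, biglycan, from 3.11, 4.64 and 4.07 CPM to 11.8, 11.8 and 12.7 CPM (1.63, SE 0.145). EFEMP1, fibulin-3, was at 1.86 from under 1 CPM. Of 29 collagens 7 were lower and 9 higher, with COL5A1 (0.94) and COL16A1 (0.84) higher and COL22A1 (-0.74) lower. Among 31 matrix proteases and inhibitors 12 were higher and 2 lower, and the 2 were MMP1 (-2.07), interstitial collagenase and a textbook AP-1 target, at 1.12, 1.28 and 0.937 CPM before and 0.482, 0.262 and 0.0467 CPM after silencing, and TIMP3 (-0.90), an inhibitor of metalloproteinases, from 906, 911 and 901 CPM to 491, 476 and 490.5 CPM. ADAMTS1, a proteoglycan-cleaving protease, rose by 1.17. PLAT, tissue plasminogen activator, fell from 958, 988 and 979.8 CPM to 441, 454 and 454 CPM (-1.12, SE 0.0178, adjusted p = 5.9e-20). SERPINB8 rose by 0.48. The 3′UTR of PLAT holds the 7-base sequence.

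Genes of energy metabolism were mostly lower. In glycolysis and hypoxia 21 of 34 were lower and 5 higher (median -0.30), and in lower glycolysis 11 of 13 were lower. ENO2, a neuronal enolase, fell from 23.2, 24.7 and 26.3 CPM to 11.9, 11.4 and 11.7 CPM (-1.08), PGK1 by 0.61, LDHA by 0.58 and TPI1 by 0.52. BNIP3, a mitophagy receptor induced by hypoxia, fell from 109.7, 117 and 109 CPM to 57.6, 60.4 and 58.8 CPM (-0.92), whereas EPAS1, the HIF-2 alpha subunit, rose from 24.1, 24.8 and 25.01 CPM to 49.3, 49.4 and 50.4 CPM (1.01). In cholesterol and fatty acid synthesis 19 of 32 were lower and 1 higher, including all 8 fatty acid genes, with ELOVL6 at -0.51, and of the sterol enzymes LSS at -0.56 and MVD at -0.55. Of 88 respiratory chain genes 41 were lower and 6 higher (median -0.10). The mitochondrially encoded ones were lower in 12 of 13, led by MT-ND6 (-0.45), beside the lower mitochondrial share of the si-FRA1 libraries. ATP5PO, of the ATP synthase, was at -0.55 and SDHD, of complex II, at 0.46.

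Genes of protein synthesis and turnover changed little. Of 84 cytosolic ribosomal protein genes 50 were lower and 7 higher, but the median was only -0.09, with RPL39L (-0.53), RPL27 (-0.32) and RPS21 (-0.31) the farthest. Among ribosome biogenesis genes 15 of 27 were higher and 7 lower. All 5 genes of the MYC and MAX network were higher (MYC at 0.24, its antagonist MXI1 at 0.36), POLR1B and WDR12 were at 0.37, and NOLC1 was at -1.87 while the next lowest, NPM1, was at -0.25. Of 34 proteasome genes 17 were lower and 6 higher, among them PSMA2 (-0.68), PSMB4 (-0.47) and PSMD9 (-0.47). Of 20 tRNA synthetases 7 were lower and 6 higher, from DARS (-0.36) to AARS (0.35) and WARS, which interferon also induces (0.89). Of 15 chaperones 7 were lower and 5 higher, with HSPE1 (-0.29), BAG3 (-0.25) and HSPH1 (0.22).

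Stress response genes were split. Of 33 genes of the integrated stress and unfolded protein response 15 were higher and 10 lower. TRIB3, a pseudokinase, rose from 8.99, 8.35 and 8.15 CPM to 18.98, 21.3 and 21.3 CPM (1.27), DDIT3, the factor CHOP, from 40.1, 45.6 and 44.9 CPM to 83.2, 86.4 and 85.0 CPM (0.97) and ATF4 by 0.45. Targets of ATF4 went both ways, with the synthesis genes ASNS (-0.68), MTHFD2 (-0.49) and PSPH (-0.43) lower and the amino acid transporters SLC3A2 (0.69), SLC7A11 (0.39) and SLC7A5 (0.32) higher. Of the 5 lower ATF4 targets 3 hold the 7-base sequence in the 3′UTR, beside 17.5% of all protein-coding genes with a 3′UTR that passed lower. In the NRF2 and glutathione list 16 of 30 were higher and 4 lower. TXNRD1, thioredoxin reductase, rose from 279.7, 277 and 285 CPM to 454, 444 and 444 CPM (0.67) and OSGIN1 by 0.82, while GPX8, a peroxidase of the endoplasmic reticulum with the 7-base sequence in its 3′UTR, fell from 35.5, 32.6 and 34.1 CPM to 11.3, 10.4 and 12.98 CPM (-1.56). Of 41 lysosome and autophagy genes 18 were higher and 4 lower. SQSTM1, the autophagy receptor p62, rose from 941, 963 and 951 CPM to 1487, 1480.1 and 1477 CPM (0.64), GABARAPL1 by 0.62 and NEU1 by 0.52, and 6 of 7 regulators were higher, among them TFEB (0.70) and TFE3 (0.47). The 3 metallothioneins tested were higher, MT1X at 0.92, MT1E at 0.25 and MT2A at 0.13.

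Of the immune lists all had more higher than lower members, although most members did not pass or had few counts. In the interferon list 12 of 35 were higher and 3 lower (median 0.17). IRF1, a factor of the interferon response, rose from 8.79, 8.08 and 8.23 CPM to 25.7, 24.5 and 24.99 CPM (1.58, SE 0.0812), IFIT2 by 0.89 and the RNA sensor TLR3 by 0.74, and the antiviral effectors IFIT1 (1.56) and IFIT3 (1.16) were called at under 100 counts, but ISG15 did not pass at -0.20, nor MX1 at 0.14 nor IFI6 at -0.07. CMPK2 was called lower at -1.10, also at few counts. Of 31 genes of antigen presentation and checkpoints 12 were higher and 4 lower. TAPBP, tapasin, which loads peptides on class I molecules, fell from 114, 115 and 115 CPM to 58.6, 52.8 and 53.9 CPM (-1.06), and its 3′UTR match lies in the repeat context alone. ERAP1, a peptide trimming enzyme, rose by 0.57, PSMB10 changed by -0.49, and HLA-B did not pass at 0.11 nor HLA-C at 0.07. The checkpoint ligand CD274, PD-L1, was at 0.397, 0.398 and 0.733 CPM before and 1.83, 2.01 and 1.96 CPM after silencing (1.92), low in both groups. Of 23 cytokine and NF-kB genes 10 were higher and 2 lower. IL24, a cytokine of the IL-10 family, was called at 2.33 from at most 0.244 CPM with si-NT, and at a mean count of 100 or more CX3CL1 (0.79), the feedback gene TNFAIP3 (0.62) and CXCL16 (0.57) rose most. In the IL-6 family 7 of 21 were higher and 2 lower. IL6ST, the shared receptor gp130, rose from 407, 407 and 407 CPM to 658, 663 and 671 CPM (0.71), SOCS3, its feedback inhibitor, by 0.85 and PIM1 by 0.57.

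Among transcription factors, KLF7 fell (-0.94) while KLF9 (0.79) and KLF10 (0.78) were among 7 of 14 KLF genes that rose. Of 11 SOX genes 6 were higher and 3 lower. SOX8 rose from 17.9, 20.9 and 21.2 CPM to 44.03, 37.4 and 42.6 CPM (1.05), SOX13 by 0.62, and SOX6 fell by 0.47. Of 17 circadian clock genes 13 were higher and 0 lower (median 0.39), among them NR1D1 (0.65), NFIL3 (0.57) and PER3 (0.51). NR1D1, the repressor REV-ERB alpha, was 131, 136 and 135 CPM with si-NT, against 211, 209 and 213 CPM with si-FRA1. Activators and repressors of the clock rose alike, with CLOCK at 0.39, ARNTL at 0.45 and CRY1 at 0.37. HOX genes passed at shares near those of all genes (5 lower and 8 higher of 34), with HOXB2 (0.65), HOXD13 (0.59) and HOXC8 (0.53) among the higher.

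Both groups received siRNAs, and of 12 genes of the RNA silencing machinery 8 were higher with si-FRA1 and 2 lower, with TNRC6B, a scaffold of the silencing complex, from 187, 192 and 186 CPM to 297, 309 and 308 CPM (0.69), DICER1 at 0.45 and DGCR8 at -0.30. Nuclear and snoRNA host long non-coding RNAs were higher in 14 of 18 (median 0.29), including all 6 nuclear ones. KCNQ1OT1 rose from 774, 800.4 and 804 CPM to 1231, 1204 and 1209 CPM (0.61), EPB41L4A-AS1 by 0.53 and SNHG16 by 0.46. Of 232 LINC-named genes 14 were lower and 20 higher, a smaller share than over all genes in both directions, with LINC00707, LINC00342 (-0.996) and LINC01447 (-0.84) the most changed at that count. Of 90 keratins and claudins 10 had enough counts to be tested, of which CLDN15 (0.57), CLDN12 (0.40) and KRT18 (0.25) were higher and KRT15 (-0.82) lower.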

How the data were processed

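RNA-seq counts were taken as the authors deposited them. Per the study's methods, strand-specific libraries were aligned to GRCh38 with STAR 2.7.7a and genes counted with RSEM 1.3.0 on Gencode v30, and the deposited expected counts came unnormalized, already as whole numbers. Cut&Run reads were aligned by the authors with Bowtie2 2.4.1, with peaks called by MACS2 2.1.1.20160309, and the authors deposited raw counts per consensus peak.

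The 6 samples were fitted with edgeR 4.0.16 (filterByExpr, TMM, quasi-likelihood test, Benjamini-Hochberg adjustment over 17136 genes) in R 4.3.3. CPM use TMM library sizes. Intervals are 95% Wilson intervals and cover counting error only. Gene positions and 3′UTRs are from GENCODE v44. On simulated counts with 200 genes changed by more than 2-fold, 192 were recovered with 1 false call among 16646 genes. Smaller changes, like those of most genes that passed, were not simulated.

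Members, gene lists and the 7-base sequence were chosen with earlier results of these data known. Named are the genes the study's text names, the 10 most changed called protein-coding genes each way (mean of at least 100 counts, groups not overlapping), the 3 most changed passing members per list and 5 long non-coding genes. Other members are named beside a role's count, after their values were seen. Alternatives were DESeq2 1.42.0, other scalings, filters and limits, a replicate block, all 12 RNA-seq samples, and each sample left out. The list of the study's genes was reduced to those in its text after the values were known, and genes taken off it are described under other rules. Some items are not reported here.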

Additional observations from a re-analysis of the deposited data

How the results depend on the processing

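FOSL1 stayed between -2.86 and -2.80 when each RNA-seq sample was left out in turn, with 492 to 552 genes called (305 to 364 lower, 177 to 205 higher). Requiring 10 counts in every sample left 351 called genes, 211 of them lower, since fewer genes were tested, and an adjusted p limit of 0.01 left 224 called lower. Membership changed more than these counts, since leaving out 1 sample kept 376 to 419 of the 536 called genes. DESeq2 called 472 genes, 471 of them among the 536, the fit without a filter called 701 (436 shared) and the fit on all 12 RNA-seq samples 620 (452 shared). Of 180 named genes other than FOSL1, 176 kept their direction and side of the threshold in all settings, none reversed, and PSMB10, NKD1, HOXC8 and NOTCH3 lost significance in some. The medians of the YAP and TEAD, HMGA and polycomb, and collagen lists, all near 0, changed sign under scaling by total count.

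Same-numbered samples did not deviate together from their group means (correlations from -0.24 to -0.07 over 11191 genes). With 3 samples per group this cannot settle whether they were prepared in pairs, and the labels do not say. With the replicate block 510 genes were called, 489 of them among the 536.

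Promoter peak shares depended on the limit. At 2 times IgG they were 13.2% of all genes, 14.1% of called lower and 9.27% of called higher genes, and at 8 times IgG 1.23%, 1.56% and 0.662%. A window of 1 kb gave 3.10% of all genes. Leaving out 1 FRA1 library gave 4.91% to 8.62% of all and 5.08% to 11.3% of called lower genes, highest without replicate 1, the shallowest. With TGACTCA or TGAGTCA alone, 4.81% (4.43% to 5.23%) of promoter windows of all tested genes held a match. The shares were 8.59% (5.43% to 13.3%) for called lower and 7.21% (3.70% to 13.6%) for called higher genes.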
